A study of Bos taurus with 12 samples.

Results

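The genes studied were 9 components of transforming growth factor beta (TGF-beta) signalling in bovine intramuscular preadipocytes that were induced to become adipocytes. They comprised the ligand genes TGFB1, TGFB2, TGFB3 and INHBA, the latent TGF-beta binding protein genes LTBP1 and LTBP2, the receptor gene TGFBR2, and SMAD7 and TGFBI, which are commonly read as responses to the pathway. They were taken by gene name from the mRNA table, where they made up 9 of 33714 mRNAs, and the circRNAs with TGFBR2 as host gene were added, 2 of 14070 circRNAs. Newborn Qinchuan cattle were the source of the cells, which had been isolated from longissimus dorsi and grown in medium with 15% FBS. At 90% confluence they received dexamethasone (labelled as 1 g/mL), IBMX (0.5 mM) and insulin (5 μg/mL) for 48 h, and after that insulin (5 μg/mL) alone. Both the dexamethasone and the insulin dose in these labels differ from those in the methods of the study. RNA was sequenced before induction (0 d) and 3, 6 or 9 days later (3 d, 6 d, 9 d), each day being represented by 3 of the 12 libraries. The methods of the study name 3 biological replicates per day, and its discussion the same batch of cells across the days. Neither the study nor the labels say whether the 3 libraries of a day came from separate animals or cultures. The p-values therefore measure the spread among these libraries.

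TGF-beta ligands are secreted in a latent complex, in which a propeptide holds the ligand and a latent TGF-beta binding protein anchors the complex to the extracellular matrix. Once released by integrins, proteases or thrombospondin, the ligand binds the type II receptor, which recruits a type I receptor that phosphorylates SMAD2 and SMAD3. In preadipocytes the pathway is known as an inhibitor of adipogenic differentiation and as an inducer of matrix and contractile genes.

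The mRNA values were FPKM, which are reads per transcript length and library size, so levels can be compared between genes per length. The summed FPKM of all mRNAs lay between 1221194 (3 d replicate 1) and 1371794 (9 d replicate 1). The mRNA table holds no read counts, so no counting interval is given for an FPKM. The circRNA libraries held between 5358 (6 d replicate 2) and 10729 (9 d replicate 3) back-spliced reads.

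Marker genes were used to check the labelled cell type. Of 8 adipocyte markers 6 were analysed here, and their summed FPKM was 10.4, 10.3 and 11.1 at 0 d, 112, 100 and 106 at 3 d, 40.3, 40.4 and 39.3 at 6 d, followed by 47.4, 39.3 and 47.2 at 9 d. The fatty acid carrier FABP4 was the most abundant of them at 3 d and 6 d, and the hormone gene LEP at 9 d. At 3 d FABP4 alone held 94.72, 86.15 and 92.31 FPKM of these sums. ADIPOQ, the adiponectin gene, stayed at or under 1.64 FPKM in every library, and PPARG and PLIN1 were not analysed here. Of the 6 adipocyte markers, 4 were called higher and 1 lower at 3 d, 4 higher at 6 d and 4 higher at 9 d, each vs. 0 d. The lower one was LEP (-4.065), with 0, 0.21 and 0 FPKM at 3 d. The transcription factor gene CEBPA stayed at or under 0.26 FPKM in every library. It was not called at 3 d (0.73), 6 d (-0.18) or 9 d (-0.36) vs. 0 d. Among all tested mRNAs, 8.06% were called higher and 15.2% lower at 3 d vs. 0 d. These shares were 3.39% and 7.97% at 6 d vs. 0 d, and 3.41% and 7.47% at 9 d vs. 0 d. Of 8 skeletal muscle markers 7 were analysed here, with summed FPKM of 694, 730 and 810 at 0 d, 267, 294 and 291 at 3 d, 381, 369 and 413 at 6 d, then 299, 270 and 297 at 9 d. DES, which encodes the filament protein desmin, was the most abundant of them in every library, and the myogenic factor MYOD1 reached 240, 260 and 303 FPKM at 0 d. Of the 7 muscle markers, 5 were called lower at 3 d, 4 at 6 d and 5 at 9 d, each vs. 0 d. Of 6 progenitor markers, COL3A1 was the most abundant in every library and DLK1 was at 0 in 7 of 12 libraries, with 2 of the 5 tested called higher and 2 lower at 3 d, 1 higher and 2 lower at 6 d and 1 lower at 9 d, each vs. 0 d. The 5 endothelial markers summed to between 2.47 and 3.49 FPKM, with VWF the most abundant and KDR at 0 in 8 of 12 libraries, and neither of the 2 tested was called against 0 d. The 5 immune markers summed to between 1.10 and 3.69 FPKM, PTPRC was at 0 in all 12 libraries, and of 3 tested 2 were called higher at 3 d and 1 at 9 d, both vs. 0 d, with CD14 the most abundant in 11 of 12 libraries. At 6 d vs. 3 d, 1 adipocyte marker was called higher and 2 lower, 1 muscle marker higher and 1 lower, and 1 progenitor (PDGFRA, -2.52), 1 endothelial (TEK, -1.02) and 1 immune marker (CSF1R, -1.20) lower. At 9 d vs. 6 d 3 adipocyte markers were higher and 1 lower, the progenitor marker PDGFRB was higher (2.82-fold), and no muscle, endothelial or immune marker was called. The shares of all tested mRNAs were 9.85% higher and 9.23% lower at 6 d vs. 3 d. At 9 d vs. 6 d they were 2.55% and 1.89%. Some marker calls were not steady. The progenitor marker CD34, called lower at 3 d, 6 d and 9 d vs. 0 d, had a mean of 0.63 FPKM at 0 d. Its means on the later days were 0.10, 0.02 and 0.04, so it passed the filter of 0.1 FPKM only through 0 d. ADIPOQ lost its call at 6 d vs. 0 d without 0 d replicates 1, 2 or 3 or 6 d replicate 1 (limma with Benjamini-Hochberg adjusted p-values 0.0710, 0.0577, 0.0567 and 0.0605) and with only the 6 libraries compared (0.0578), and at 9 d vs. 0 d without 0 d replicate 1 or 9 d replicates 1 or 2 (0.0565, 0.0684 and 0.0706). CSF1R lost its call at 3 d vs. 0 d without 0 d replicate 3 (1.00, under the threshold before rounding), and TEK at 6 d vs. 3 d without 3 d replicate 1 (-0.97), without 6 d replicate 3 (-0.94) and with rescaled libraries (-0.94). From 6 d to 9 d LPL was lost without 6 d replicate 1 (0.97) or 9 d replicate 3 (0.84). LEP was lost there with any single library left out of 0 d (limma with Benjamini-Hochberg adjusted p-values 0.0567, 0.0556 and 0.0556), 6 d (0.0526, 0.0797 and 0.132) or 9 d (0.123, 0.0638 and 0.0874), with no filter (0.0581) and with the replicate block (0.0545). With a pseudocount of 1 the calls of ADIPOQ, CD34, CSF1R and TEK were all lost, as were CD14 at 9 d vs. 0 d (0.94) and LPL at 9 d vs. 6 d (0.85), and with a pseudocount of 0.01 the calls of LEP at 6 d vs. 0 d and from 6 d to 9 d. Several but not all adipocyte and muscle markers thus differed from 0 d on every later day, and the part of such differences in the values below was not tested. Fewer cells of a type and less RNA per cell cannot be told apart in these bulk libraries.

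The 9 genes spanned a wide range of levels. At 0 d the mean FPKM of 3 libraries was 3811 for LTBP2, 66.4 for TGFBI, 19.99 for TGFBR2, 10.9 for TGFB2, 9.71 for SMAD7, 7.63 for TGFB1, 4.50 for LTBP1, 3.37 for TGFB3 and 0.647 for INHBA, and each gene lay above the next in every library of that day. LTBP2 and TGFBI held the first places on all 4 days, and TGFB3 and INHBA the last. The middle of the order moved. At 3 d TGFB2 lay in the third place with a mean of 21.6 FPKM, above TGFBR2 at 11.7, and TGFBR2 overlapped SMAD7 at 11.3, as TGFB1 at 5.05 overlapped LTBP1 at 4.79. At 6 d TGFB2 (10.6), SMAD7 (10.1) and LTBP1 (9.68) could not be separated from their neighbours in that order. At 9 d SMAD7 (8.38) overlapped TGFB1 (7.94), and TGFB2 had moved down to the seventh place with 3.33 FPKM.

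**Figure D1:**
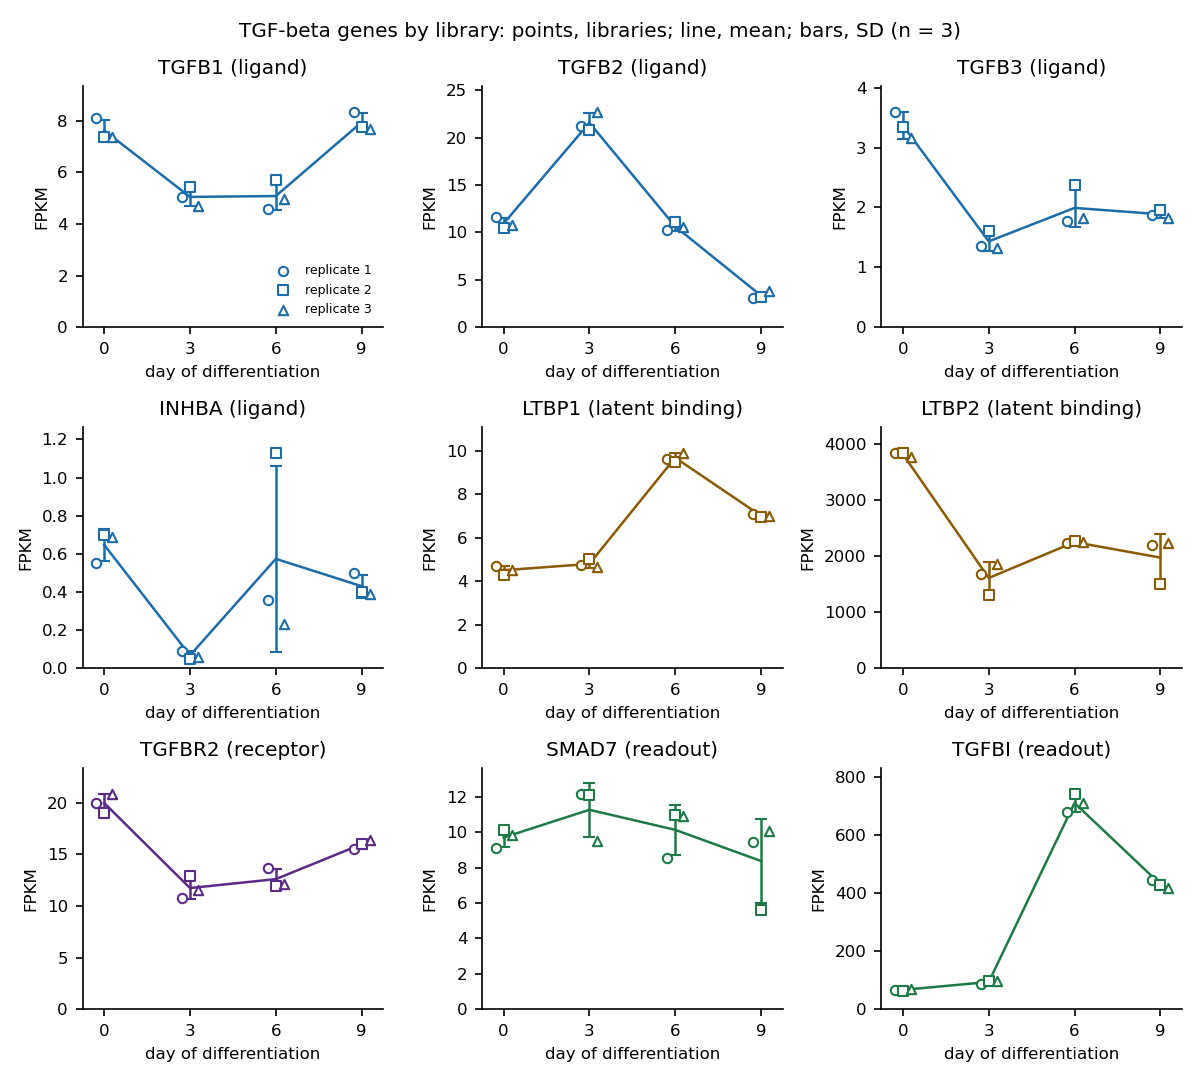
FPKM (vertical axis) of the 9 TGF-beta genes against the day of differentiation (horizontal axis), with 1 point per library, a line through the means and bars of 1 SD (n = 3). TGFB2 peaked at 3 d with a mean of 21.6 FPKM, and TGFBI at 6 d with 712 FPKM.

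A gene was called when the Benjamini-Hochberg adjusted p-value of limma was under 0.05 and the absolute log2 fold change over 1. All 9 genes passed the filter on low values (a mean of at least 0.1 FPKM), as did 15402 mRNAs in all. The comparisons of 3 d, 6 d and 9 d with 0 d share the 0 d libraries, and those of successive days share the libraries of 3 d or 6 d, so their values are given side by side.

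At 3 d vs. 0 d, TGFB3, INHBA and LTBP2 fell and none of the 9 genes was called higher. Of all tested mRNAs 15.2% were called lower and 8.06% higher. The median log2 fold change was -0.59 over the 9 genes and -0.06 over all tested mRNAs.

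At 6 d vs. 0 d, LTBP1 and TGFBI rose and none was called lower. Of all tested mRNAs 3.39% were called higher and 7.97% lower, and 29.8% of the calls were higher, against 40.8% after the libraries were rescaled by their median ratio. The median log2 fold change was -0.38 over the 9 genes and -0.15 over all tested mRNAs. The rescaling moved the median of all mRNAs by 0.16 at 6 d and 0.19 at 9 d, each vs. 0 d.

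At 9 d vs. 0 d, TGFBI rose and TGFB2 fell. Of all tested mRNAs 3.41% were called higher and 7.47% lower, and 31.3% of the calls were higher, against 46.8% after rescaling. The median log2 fold change was -0.32 over the 9 genes and -0.19 over all tested mRNAs.

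Between successive days, INHBA, LTBP1 and TGFBI rose and TGFB2 fell at 6 d vs. 3 d, where 9.85% of all tested mRNAs were called higher and 9.23% lower. Without 3 d replicate 3 only 2 of these 4 calls held, those of INHBA and TGFBI. At 9 d vs. 6 d TGFB2 fell and the other 8 genes were not called, beside 2.55% of all tested mRNAs called higher and 1.89% lower. The median log2 fold change of the 9 genes was 0.44 at 6 d vs. 3 d and -0.21 at 9 d vs. 6 d, and that of all tested mRNAs was -0.09 and -0.04. With counts this small, the shares called among 9 genes carry little weight beside those of all mRNAs.

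**Figure D2:**
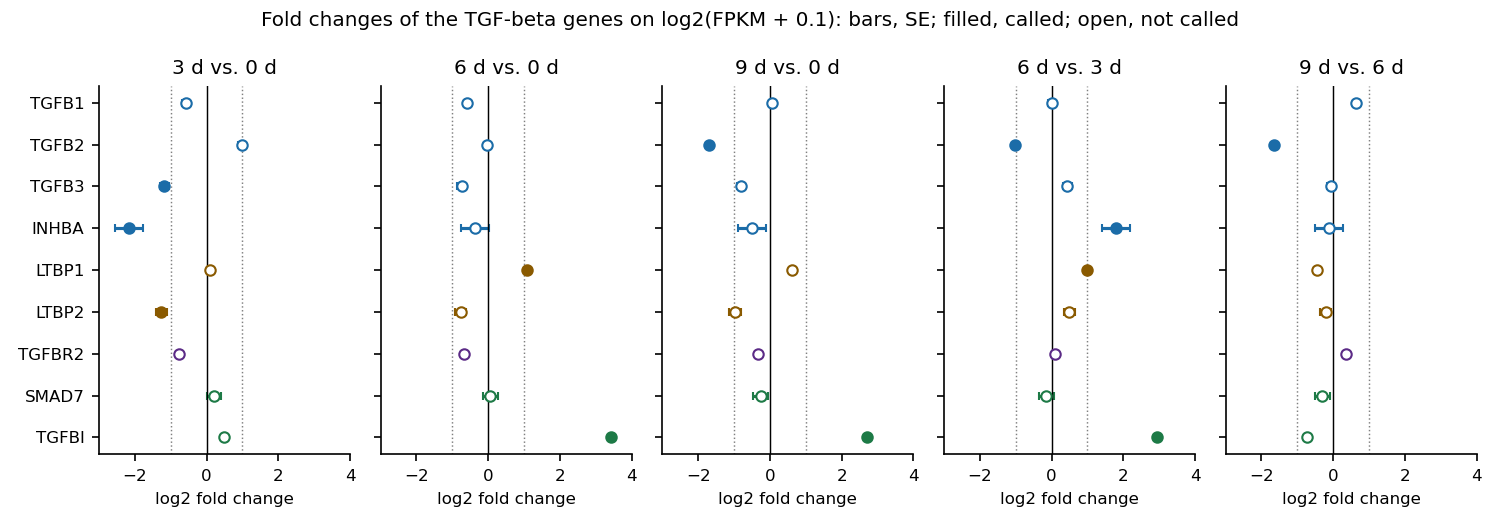
Log2 fold changes of log2(FPKM + 0.1) (horizontal axis) of the 9 genes (vertical axis) in the 5 comparisons, with bars of 1 SE, filled points for called genes and dotted lines at the threshold of 1. TGFBI stood farthest to the right at 6 d vs. 0 d, with 3.42.

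TGFB1 encodes the most widely expressed TGF-beta ligand. Its FPKM was 8.10, 7.39 and 7.39 at 0 d, 5.03, 5.43 and 4.69 at 3 d, 4.59, 5.69 and 4.97 at 6 d, and finally 8.35, 7.78 and 7.70 at 9 d. As deposited, the libraries of 3 d and 6 d all lay under those of 0 d and 9 d, while 0 d overlapped 9 d and 3 d overlapped 6 d. The log2 fold change was -0.59 at 3 d vs. 0 d (SE 0.0941, limma with Benjamini-Hochberg adjusted p-value 0.000433), -0.58 at 6 d vs. 0 d (0.000893) and 0.06 at 9 d vs. 0 d (0.673). With rescaled libraries the value at 9 d vs. 0 d was 0.26 (limma with Benjamini-Hochberg adjusted p-value 0.0597), so its size depends on the scaling. The values between successive days were 0.01 (0.965) at 6 d vs. 3 d and 0.64 (0.00103) at 9 d vs. 6 d. The direction at 6 d vs. 3 d was not settled, with -0.08 without 6 d replicate 2 and -0.04 without 3 d replicate 3. TGFB1 was called in none of the 5 comparisons, since every fold change lay within the threshold, and its highest day mean was 1.57 times its lowest.

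TGFB2 encodes a ligand that needs a co-receptor such as betaglycan to bind the type II receptor well. Its FPKM was 11.6, 10.5 and 10.7 at 0 d, 21.2, 20.8 and 22.7 at 3 d, 10.2, 11.1 and 10.6 at 6 d, followed by 3.09, 3.14 and 3.77 at 9 d. The 3 libraries of 3 d were the highest and those of 9 d the lowest, with no overlap with any other day, and 0 d overlapped 6 d. At 3 d vs. 0 d the log2 fold change was 0.97 (SE 0.0873, limma with Benjamini-Hochberg adjusted p-value 6.42e-06), just under the threshold of 1. It passed with rescaled libraries (1.05), without 0 d replicate 1 (1.02) and without 3 d replicate 2 (1.00). TGFB2 fell by 1.01 log2 units at 6 d vs. 3 d (limma with Benjamini-Hochberg adjusted p-value 6.52e-06), a call that was lost without 3 d replicate 3 (-0.98), without 6 d replicate 1 (-0.99), with rescaled libraries (-0.93) and with a pseudocount of 1 (-0.96). It fell by 1.65 at 9 d vs. 6 d (1.54e-06) and by 1.69 at 9 d vs. 0 d (4.72e-07), the latter a 3.22-fold lower level. For 6 d vs. 0 d the log2 fold change was -0.04 (0.773) as deposited and 0.13 with rescaled libraries, so its direction was not settled.

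TGFB3 encodes the ligand with the lowest level of the 3 TGF-beta isoforms at 0 d. Its FPKM was 3.60, 3.35 and 3.16 at 0 d, 1.36, 1.61 and 1.33 at 3 d, 1.78, 2.37 and 1.83 at 6 d, then 1.88, 1.96 and 1.82 at 9 d. All 9 libraries after induction lay under the 3 of 0 d, those of 3 d were the lowest, and 6 d overlapped 9 d. TGFB3 fell by 1.18 log2 units at 3 d vs. 0 d (SE 0.122, limma with Benjamini-Hochberg adjusted p-value 1.82e-05), a 2.27-fold lower level, which was -0.85 and not called with a pseudocount of 1. Fold changes against 0 d were -0.74 (0.000982) for 6 d and -0.80 (0.000585) for 9 d, which stayed within the threshold. Against 3 d, the log2 fold change at 6 d was 0.44 (0.0123), and from 6 d to 9 d it was -0.06 (0.775). The latter was 0.06 without 6 d replicate 2, so its direction was not settled.

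Within the summed FPKM of TGFB1, TGFB2 and TGFB3, the leading isoform changed from TGFB2 to TGFB1 by 9 d. TGFB2 held 49.9% ± 0.537 (SD, n = 3) of the sum at 0 d, 76.9% ± 2.19 at 3 d, 60.1% ± 1.95 at 6 d, but only 25.3% ± 2.71 at 9 d. TGFB1 held 34.8% ± 0.0576, 18.0% ± 1.62, 28.6% ± 1.03 and 60.3% ± 2.38 on the same days. TGFB3 held 15.4% ± 0.479, 5.11% ± 0.605, 11.2% ± 1.01 and 14.3% ± 0.787. The order TGFB2, TGFB1, TGFB3 stood in all libraries of 0 d, 3 d and 6 d, and TGFB1, TGFB2, TGFB3 in all libraries of 9 d. The sum itself was 21.9 ± 1.18 FPKM at 0 d, 28.1 ± 0.604 at 3 d, 17.7 ± 1.31 at 6 d, and its lowest value was 13.2 ± 0.246 at 9 d. These shares are descriptions per length and were not tested.

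**Figure D3:**
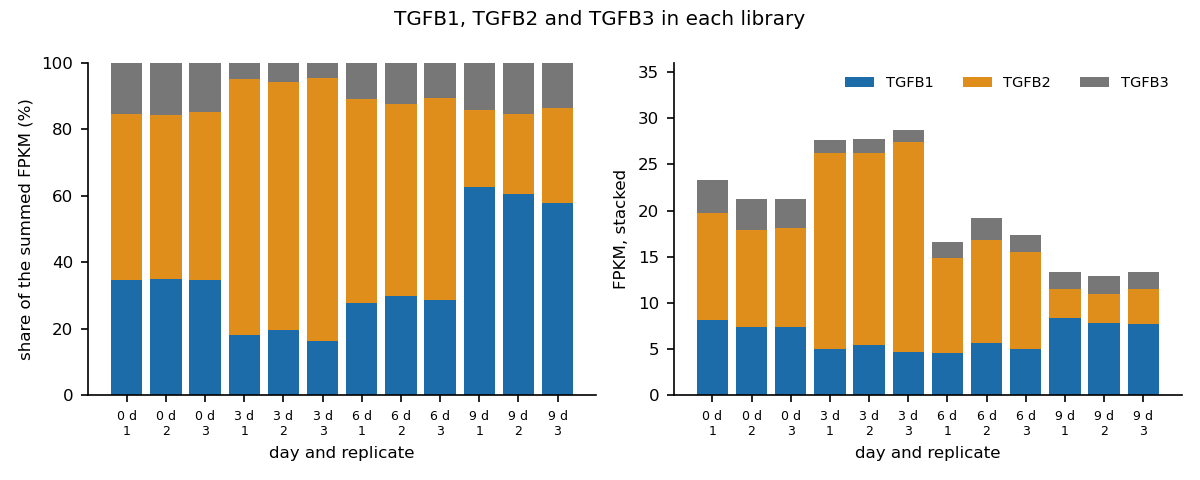
Share of the summed FPKM (left, %) and stacked FPKM (right) of TGFB1, TGFB2 and TGFB3 in each of the 12 libraries (horizontal axes, day and replicate). TGFB2 filled 76.9% of the mean bar at 3 d and TGFB1 60.3% at 9 d.

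INHBA encodes the inhibin beta A subunit, whose dimer is activin A, a ligand that signals through the same SMAD2 and SMAD3. Its FPKM was 0.55, 0.70 and 0.69 at 0 d, 0.09, 0.05 and 0.06 at 3 d, 0.36, 1.13 and 0.23 at 6 d, and finally 0.50, 0.40 and 0.39 at 9 d. The 3 libraries of 3 d were the lowest of all, and 6 d replicate 2 was the highest and stood apart from the other two of its day. INHBA fell by 2.16 log2 units at 3 d vs. 0 d (SE 0.390, limma with Benjamini-Hochberg adjusted p-value 0.000946), and rose by 1.78 at 6 d vs. 3 d (0.00355). These values lie near the pseudocount of 0.1, so their size depends on it. With a pseudocount of 1 they became -0.63 and 0.52 and neither was called, and with a pseudocount of 0.01 they became -3.12 and 2.64 and both were called. At 6 d and 9 d vs. 0 d the log2 fold change was -0.38 (0.510) and -0.49 (0.363), and at 9 d vs. 6 d it was -0.12 (0.886). The value at 6 d vs. 0 d was 0.02 without 6 d replicate 3. That at 9 d vs. 6 d was 0.44 without 6 d replicate 2, so neither direction was settled.

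LTBP1 encodes a matrix protein that binds the latent complex and takes part in its release. Its FPKM was 4.70, 4.30 and 4.50 at 0 d, 4.72, 5.02 and 4.63 at 3 d, 9.63, 9.50 and 9.90 at 6 d, followed by 7.07, 6.96 and 6.99 at 9 d. The libraries of 6 d were the highest, followed by those of 9 d, and only 0 d and 3 d overlapped. LTBP1 rose by 1.09 log2 units at 6 d vs. 0 d (SE 0.0633, limma with Benjamini-Hochberg adjusted p-value 7.40e-07), a 2.13-fold higher level, which was 0.96 and not called with a pseudocount of 1. The rise of 1.00 at 6 d vs. 3 d (6.81e-07) lay on the threshold. It dropped under it without 3 d replicate 1 (0.99), without 3 d replicate 3 (0.98) and without 6 d replicate 3 (0.98), and with a pseudocount of 1 (0.88). At 9 d the log2 fold change was 0.63 vs. 0 d (limma with Benjamini-Hochberg adjusted p-value 4.18e-05) and -0.46 vs. 6 d (0.000691), neither of them called. The value at 3 d vs. 0 d was 0.09 (0.275).

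LTBP2 belongs to the same family but does not bind latent TGF-beta itself, and it takes part in the assembly of microfibrils. It was the most abundant of the 9 genes per length, with 3827, 3836 and 3769 FPKM at 0 d, 1673, 1297 and 1847 at 3 d, 2223, 2272 and 2240 at 6 d, then 2186, 1494 and 2228 at 9 d. All libraries of 0 d lay above all others, 6 d lay above 3 d, and 9 d overlapped both, with 9 d replicate 2 the lowest of its day. LTBP2 fell by 1.26 log2 units at 3 d vs. 0 d (SE 0.157, limma with Benjamini-Hochberg adjusted p-value 7.36e-05), a 2.40-fold lower level. Its log2 fold change was -0.98 (0.000872) at 9 d vs. 0 d. That value passed the threshold without 9 d replicate 1 (-1.06) or without 9 d replicate 3 (-1.08), and was -0.79 without 9 d replicate 2 and -0.77 with rescaled libraries. It was -0.76 (limma with Benjamini-Hochberg adjusted p-value 0.00383) at 6 d vs. 0 d, 0.50 (0.0238) at 6 d vs. 3 d and -0.21 (0.410) at 9 d vs. 6 d.

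TGFBR2 encodes the type II receptor that binds the TGF-beta ligands. Its FPKM was 20.02, 19.1 and 20.9 at 0 d, 10.8, 12.9 and 11.5 at 3 d, 13.7, 11.9 and 12.2 at 6 d, and finally 15.6, 16.1 and 16.4 at 9 d. As deposited, the libraries of 0 d were the highest, those of 9 d came next, and 3 d and 6 d overlapped at the bottom. The log2 fold change was -0.77 at 3 d (SE 0.0829, limma with Benjamini-Hochberg adjusted p-value 2.66e-05), -0.66 at 6 d (0.000156) and -0.32 at 9 d (0.0127), each vs. 0 d. It was 0.10 (0.335) at 6 d vs. 3 d and 0.34 (0.0157) at 9 d vs. 6 d. With rescaled libraries the value at 9 d vs. 0 d was -0.11 (limma with Benjamini-Hochberg adjusted p-value 0.393), so the size of the difference at 9 d depends on the scaling. The receptor was called in none of the 5 comparisons.

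SMAD7 encodes an inhibitory SMAD that the pathway induces and that acts back on the receptors. Its FPKM was 9.12, 10.1 and 9.87 at 0 d, 12.2, 12.1 and 9.51 at 3 d, 8.53, 11 and 10.9 at 6 d, followed by 9.44, 5.63 and 10.1 at 9 d. The libraries overlapped between every pair of days compared, and 9 d replicate 2 was the lowest of the 12. The log2 fold changes were 0.21, 0.05 and -0.25 at 3 d, 6 d and 9 d vs. 0 d, with limma Benjamini-Hochberg adjusted p-values of 0.440, 0.871 and 0.382. Between successive days they were -0.15 (0.577) at 6 d vs. 3 d and -0.31 (0.357) at 9 d vs. 6 d. The SE was 0.207 for each, and a p-value that missed the threshold does not show that SMAD7 was unchanged. Its direction was not settled at 6 d vs. 0 d (-0.00844 without 6 d replicate 2) or at 9 d vs. 0 d (0.00728 without 9 d replicate 2).

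TGFBI encodes a secreted matrix protein named for its induction by TGF-beta. Its FPKM was 66.0, 63.3 and 69.8 at 0 d, 85.5, 97.6 and 97.6 at 3 d, 680, 743 and 712 at 6 d, then 447, 428 and 420 at 9 d. No days overlapped, and the order from highest to lowest was 6 d, 9 d, 3 d and 0 d, with a ratio of 10.7 between the ends. TGFBI rose by 3.42 log2 units at 6 d vs. 0 d (SE 0.0660, limma with Benjamini-Hochberg adjusted p-value 7.68e-10), by 2.93 at 6 d vs. 3 d (6.67e-10) and by 2.70 at 9 d vs. 0 d (4.41e-09). At 3 d vs. 0 d the log2 fold change was 0.49 (0.000124), and at 9 d vs. 6 d it was -0.72 (4.86e-05), both within the threshold. TGFBI was the only one of the 9 genes called higher at 9 d vs. 0 d, and its calls held with every library left out and under every other setting.

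The other genes of the pathway were taken from 6 lists with 63 genes, of which 58 were analysed here and 54 passed the filter. These lists were chosen with earlier results of these data known, so their counts cannot serve as a test of the pathway. BMP1, SMAD6, SMURF2, SKI and TPM1 were not analysed here, and MSTN, NODAL, ACVR1C and NRROS lay under the filter. At 3 d vs. 0 d, 25 of the 54 were called lower and 3 higher, with a median log2 fold change of -0.90, beside 15.2% lower, 8.06% higher and a median of -0.06 over all tested mRNAs. The reverse was seen at 6 d vs. 3 d, where 24 were called higher and 2 lower, with a median of 0.83, beside 9.85% higher, 9.23% lower and a median of -0.09. At 6 d vs. 0 d, 6 were called higher and 7 lower (median -0.04), at 9 d vs. 0 d 6 higher and 7 lower (0.14), and at 9 d vs. 6 d 7 higher and 5 lower (0.14). For these 3 comparisons the shares of all tested mRNAs were 3.39% higher and 7.97% lower (median -0.15), 3.41% and 7.47% (-0.19), and 2.55% and 1.89% (-0.04). The genes called made up 51.9% of the 54 at 3 d, 24.1% at 6 d and 24.1% at 9 d, each vs. 0 d, 48.1% at 6 d vs. 3 d and 22.2% at 9 d vs. 6 d. The comparisons of 3 d vs. 0 d and 6 d vs. 3 d share the 3 d libraries, so the lower values at 3 d and the higher ones after it rest on the same 3 libraries.

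Of the target genes of the pathway, 11 of 18 were lower at 3 d vs. 0 d and none higher. CTGF, which encodes connective tissue growth factor, was measured at 2500, 2345 and 2463 FPKM at 0 d, 54.4, 55.0 and 59.9 at 3 d, 1581, 1696 and 1769 at 6 d, and finally 1842, 1999 and 1880 at 9 d. The 3 d libraries lay far under all others. CTGF fell by 5.43 log2 units at 3 d vs. 0 d (SE 0.0589, limma with Benjamini-Hochberg adjusted p-value 5.95e-12), and rose by 4.90 at 6 d vs. 3 d (1.36e-11). ACTA2, the smooth muscle actin gene, was measured at 1642, 1674 and 1776 FPKM at 0 d, 24.6, 28.9 and 26.9 at 3 d, 1504, 1629 and 1617 at 6 d, followed by 596, 568 and 629 at 9 d. It was lowest at 3 d. As deposited, the 6 d libraries all lay under those of 0 d, but the log2 fold change of -0.10 was not called (limma with Benjamini-Hochberg adjusted p-value 0.301). ACTA2 fell by 5.98 at 3 d vs. 0 d (limma with Benjamini-Hochberg adjusted p-value 7.22e-12), rose by 5.88 at 6 d vs. 3 d (1.36e-11), and fell by 1.51 at 9 d vs. 0 d (1.90e-07). The matrix gene POSTN (-4.83), the contractile genes TAGLN (-3.41) and CNN1 (-3.41) and the transcription factor gene BHLHE40 (-3.09) were also lower at 3 d vs. 0 d. At 6 d the list had 4 genes called higher than at 0 d and 1 called lower, and at 6 d vs. 3 d 13 of 18 were higher and none lower. Of the 4, TAGLN (1.00) lay on the threshold and was not called without 0 d replicate 1 (0.98), 0 d replicate 2 (0.96), 6 d replicate 2 (0.99) or 6 d replicate 3 (0.99). At 9 d vs. 0 d JUNB, which encodes an AP-1 subunit (1.56), and IL11 (1.16) were higher, and CDKN2B, which encodes a cell cycle inhibitor (-1.40), was lower beside ACTA2. IL11 lay between 0.07 and 0.33 FPKM in the 12 libraries, and with a pseudocount of 1 its fold change of 0.27 was not called. Its mean was 0.08, 0.12 and 0.0733 FPKM at 0 d, 3 d and 6 d, against 0.303 at 9 d. It thus passed the filter of 0.1 FPKM only through 9 d, and its higher calls at 9 d carry no weight. From 6 d to 9 d, 4 target genes rose and 4 fell, and of the 4 that rose IL11 (1.22) was not called with a pseudocount of 1 (0.28).

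**Figure D4:**
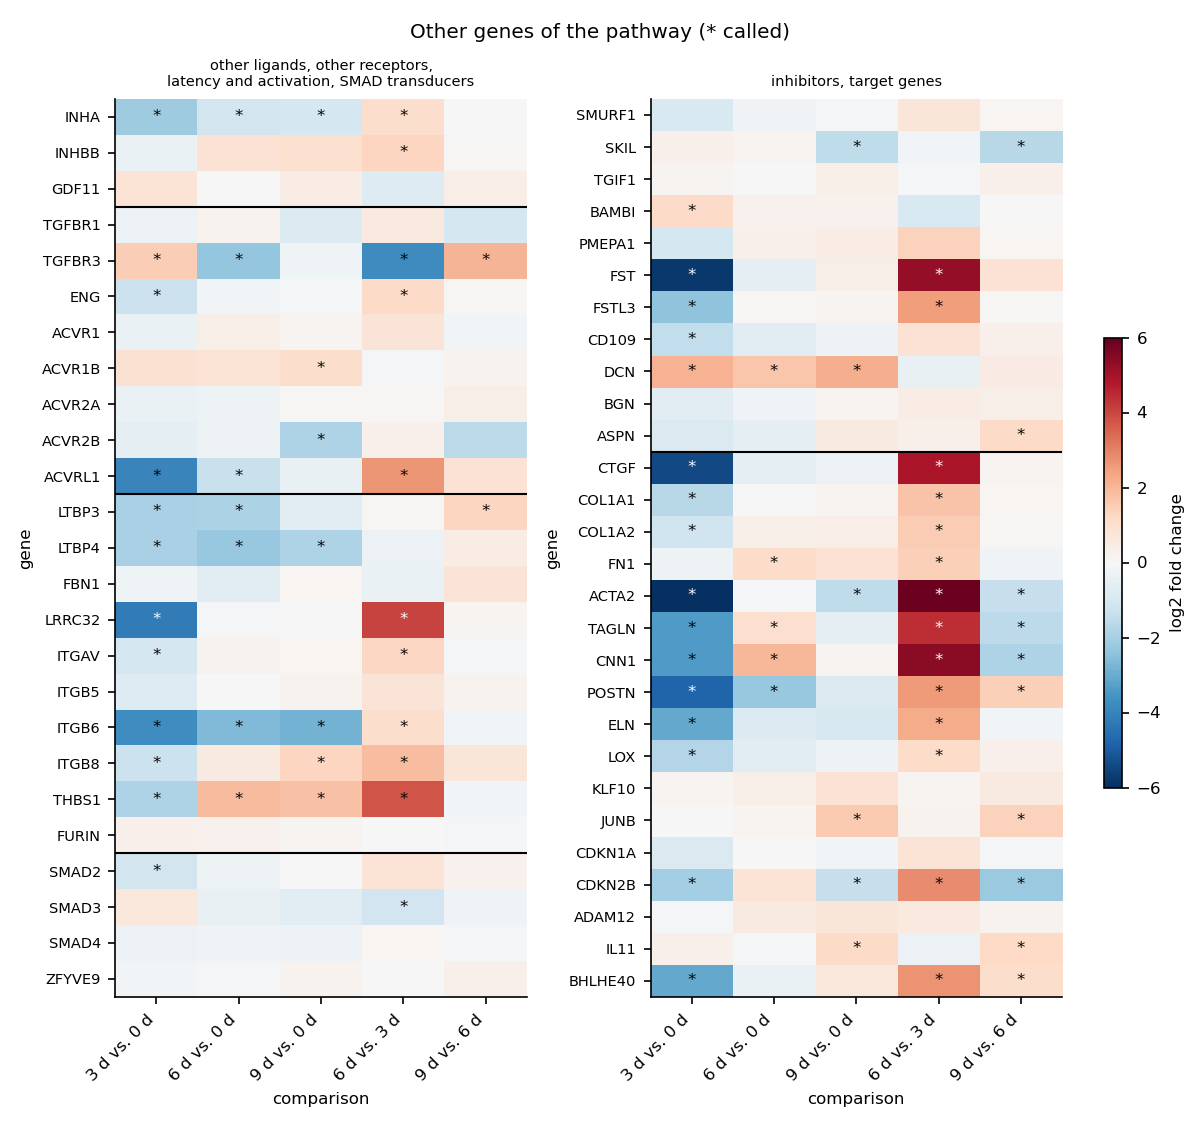
Log2 fold changes (colour, blue lower and red higher) of other pathway genes (vertical axes, by list) in the 5 comparisons (horizontal axes), with asterisks for called genes. At 3 d vs. 0 d 25 were called lower and 3 higher.

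Of the genes of latency and activation, 7 of 10 were lower and none higher at 3 d vs. 0 d. ITGAV (-1.03), an integrin subunit gene chosen after its values were seen, was among the 7 and was not called without 0 d replicate 1 (-0.98), without 3 d replicate 2 (-0.99) or with rescaled libraries (-0.95). LRRC32, which encodes GARP, a membrane anchor of latent TGF-beta, was measured at 32.9, 33.2 and 39.0 FPKM at 0 d, 1.69, 2.05 and 1.75 at 3 d, 32.4, 35.2 and 28.9 at 6 d, then 35.5, 32.1 and 38.9 at 9 d. Only the 3 d libraries stood apart, and the other days overlapped. LRRC32 fell by 4.18 log2 units at 3 d vs. 0 d (SE 0.113, limma with Benjamini-Hochberg adjusted p-value 1.14e-09), and rose by 4.06 at 6 d vs. 3 d (2.28e-09). THBS1, which encodes thrombospondin 1, an activator of latent TGF-beta, was measured at 3881, 3823 and 3764 FPKM at 0 d, 964, 1060 and 1124 at 3 d, 14180, 13980 and 14440 at 6 d, and finally 13050, 13240 and 12020 at 9 d. Its 3 d libraries were the lowest and its 6 d libraries the highest, and no days overlapped. THBS1 fell by 1.87 at 3 d vs. 0 d (limma with Benjamini-Hochberg adjusted p-value 2.83e-09), and rose by 1.89 at 6 d (1.31e-08) and 1.74 at 9 d (2.39e-08), each vs. 0 d. The integrin subunit genes ITGB6 (-3.74) and ITGB8 (-1.28) and the binding protein genes LTBP3 (-1.97) and LTBP4 (-1.95) were lower at 3 d vs. 0 d. ITGB6 (-2.83) and LTBP4 (-1.84) were still lower at 9 d vs. 0 d, while ITGB8 (1.27) was higher beside THBS1. LTBP1 and its relatives therefore differed at 6 d vs. 0 d, where LTBP1 rose by 1.09 and LTBP3 and LTBP4 fell by 1.92 and 2.28. Over this list, 1 gene was called higher and 3 lower at 6 d vs. 0 d, 2 and 2 at 9 d vs. 0 d, 5 and none at 6 d vs. 3 d, and 1 and none at 9 d vs. 6 d. Of the 5, ITGB6 (1.08) was not called without 3 d replicate 1 (1.00, under the threshold before rounding) or with a pseudocount of 1 (0.44).

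Among the other receptors, 1 of 8 was called higher and 2 lower at 3 d vs. 0 d. TGFBR3, which encodes the co-receptor betaglycan, was measured at 192, 193 and 173 FPKM at 0 d, 490, 602 and 448 at 3 d, 49.0, 33.9 and 32.2 at 6 d, followed by 173, 131 and 173 at 9 d. The 3 d libraries were the highest and those of 6 d the lowest, as no library of either day overlapped another day. TGFBR3 rose by 1.46 log2 units at 3 d vs. 0 d (SE 0.176, limma with Benjamini-Hochberg adjusted p-value 5.97e-05), fell by 3.75 at 6 d vs. 3 d (8.44e-08) and rose by 2.06 at 9 d vs. 6 d (3.11e-05). ACVRL1 (-3.97), the type I receptor gene also known as ALK1, and ENG (-1.30), the co-receptor gene for endoglin, fell at 3 d vs. 0 d. No other receptor was called higher and 2 were lower at 6 d vs. 0 d, at 6 d vs. 3 d 2 were higher and 1 lower, and at 9 d vs. 6 d 1 was higher. At 9 d vs. 0 d the type I activin receptor gene ACVR1B was higher (1.05), which did not hold without 0 d replicate 2 (1.00, under the threshold before rounding), without 9 d replicate 2 (0.97) or with a pseudocount of 1 (0.84). The type II activin receptor gene ACVR2B was measured at 47.9, 55.3 and 45.1 FPKM at 0 d and 11.9, 6.05 and 33.2 at 9 d, with 9 d replicate 3 near the 0 d libraries. Its log2 fold change was -1.87 (SE 0.625, limma with Benjamini-Hochberg adjusted p-value 0.0396). The call was lost when any 0 d or 6 d library was left out, without 9 d replicate 1 (-1.79, adjusted 0.0987) and without 9 d replicate 2 (-1.31, 0.139), and with rescaled libraries (0.0674), no filter (0.0538) or only the 6 libraries compared (0.0618). Leaving out 0 d replicates 1, 2 and 3 gave adjusted p-values from limma of 0.0846, 0.0975 and 0.0747, and leaving out 6 d replicates 1, 2 and 3 gave 0.0541, 0.0539 and 0.0545.

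Of 11 inhibitors, 2 were called higher and 3 lower at 3 d vs. 0 d. FST, which encodes the activin antagonist follistatin, was measured at 24.0, 24.7 and 26.6 FPKM at 0 d, 0.35, 0.30 and 0.40 at 3 d, 16.6, 17.1 and 18.6 at 6 d, then 32.1, 35.0 and 30.0 at 9 d. No days overlapped, and FST and INHBA, its activin target, were both lowest at 3 d. FST fell by 5.81 log2 units at 3 d vs. 0 d (SE 0.0977, limma with Benjamini-Hochberg adjusted p-value 7.72e-11), and rose by 5.29 at 6 d vs. 3 d (2.88e-10). DCN, which encodes decorin, a matrix proteoglycan that binds TGF-beta, was measured at 10150, 9343 and 10350 FPKM at 0 d, 41520, 43390 and 42390 at 3 d, 30690, 31330 and 32370 at 6 d, and finally 44170, 44060 and 45160 at 9 d. All libraries after induction lay above those of 0 d, and 9 d lay above 3 d. DCN rose by 2.09 at 3 d (limma with Benjamini-Hochberg adjusted p-value 1.90e-10), 1.66 at 6 d (4.42e-09) and 2.16 at 9 d (2.83e-09), each vs. 0 d. The antagonist gene FSTL3 (-2.43) and the co-receptor gene CD109 (-1.49) were lower at 3 d vs. 0 d, and the pseudoreceptor gene BAMBI was higher (1.17). BAMBI lay at or under 1.00 FPKM in every library, and its call did not hold without 3 d replicate 2 (0.97) or with a pseudocount of 1 (0.45). Over the inhibitors 1 was called higher at 6 d vs. 0 d, 1 higher and 1 lower at 9 d vs. 0 d, 2 higher at 6 d vs. 3 d, and 1 higher and 1 lower at 9 d vs. 6 d. The 2 lower calls were both of SKIL, and the higher call at 9 d vs. 6 d was of ASPN, genes chosen after their values were seen. SKIL had -1.52 at 9 d vs. 0 d, where its libraries overlapped, and lost the call without 0 d replicate 2 (-1.23), 0 d replicate 3 (-1.39), 9 d replicate 2 (-1.16) or 9 d replicate 3 (-1.32), with rescaled libraries (limma with Benjamini-Hochberg adjusted p-value 0.0534), with the replicate block (0.0541) and with only the 6 libraries compared (0.102). At 9 d vs. 6 d it had -1.68 and lost the call without 6 d replicate 1 (-1.73), 6 d replicate 2 (-1.59), 6 d replicate 3 (-1.72), 9 d replicate 2 (-1.32) or 9 d replicate 3 (-1.49), with the replicate block (0.0611) and with only the 6 libraries compared (0.0671). ASPN had 1.16 and lost the call in 8 of 12 fits with 1 library left out. These left out any single 0 d library (limma with Benjamini-Hochberg adjusted p-values 0.0578, 0.0566 and 0.0563), 6 d replicate 1 (0.121) or 3 (0.125), or any single 9 d library (0.0809, 0.0942 and 0.108). It was also lost with no filter (0.0581) and with the replicate block (0.0661).

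Of 4 SMAD transducers only SMAD2 was called at 3 d vs. 0 d, with 50.2, 50.3 and 45.7 FPKM at 0 d and 22.8, 21.9 and 23.0 at 3 d. The groups did not overlap, and SMAD2 fell by 1.11 log2 units (SE 0.0585, limma with Benjamini-Hochberg adjusted p-value 1.32e-07). No transducer was called at 6 d or 9 d vs. 0 d or at 9 d vs. 6 d, and 1 was lower at 6 d vs. 3 d. That was SMAD3 (-1.15), chosen after its values were seen, whose libraries overlapped. Its call was lost without 3 d replicate 1 (-0.95), 3 d replicate 3 (-0.96), 6 d replicate 1 (-0.99) or 6 d replicate 2 (-0.98), with a pseudocount of 1 (-0.93) and with only the 6 libraries compared (limma with Benjamini-Hochberg adjusted p-value 0.0789). Of 3 other ligands, INHA, which encodes the inhibin alpha subunit, was measured at 0.45, 0.52 and 0.60 FPKM at 0 d, 0.04, 0.04 and 0.05 at 3 d, followed by 0.25, 0.17 and 0.19 at 9 d. Both later days lay under 0 d. INHA fell by 2.11 at 3 d vs. 0 d (limma with Benjamini-Hochberg adjusted p-value 5.39e-07) and by 1.04 at 9 d vs. 0 d (0.000230). The second call did not hold without 0 d replicate 3 (-0.95), without 9 d replicate 2 (-0.96) or with rescaled libraries (-0.88), and with a pseudocount of 1 both were lost (-0.54 and -0.34). Over the other ligands 1 was lower at each of 3 d, 6 d and 9 d vs. 0 d, 2 were higher at 6 d vs. 3 d and none was called at 9 d vs. 6 d. The lower call at 6 d vs. 0 d was INHA (-1.08), lost without 0 d replicate 3 (-0.99), with rescaled libraries (-0.95) and with a pseudocount of 1 (-0.35), and with the latter its call at 6 d vs. 3 d (1.03) was lost as well (0.19).

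The circRNAs of TGFBR2 were counted as back-spliced reads. circRNA4965 lies on the + strand of chromosome 22 from 5129235 to 5133889 and spans 4655 bp with 2 exons, and circRNA2397 lies from 5157821 to 5160607 on the same strand and spans 2787 bp with 2 exons (ARS-UCD1.2). circRNA4965 had 0, 0 and 0 reads at 0 d, 1, 4 and 5 at 3 d, 1, 0 and 0 at 6 d, then 2, 1 and 0 at 9 d. circRNA2397 had 0, 1 and 1 reads at 0 d, 0, 2 and 0 at 3 d, 1, 0 and 0 at 6 d, and finally 1, 0 and 0 at 9 d. Every 3 d library held circRNA4965 and no 0 d library did, while the reads of circRNA2397 were spread over all days. In SRPBM, back-spliced reads scaled to the library, circRNA4965 stood at 16.7, 54.6 and 64.7 at 3 d. TGFBR2 mRNA was at its lowest mean on that day, with 11.7 FPKM.

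Neither of the 2 circRNAs was called in any of the 5 comparisons by edgeR or DESeq2 with Benjamini-Hochberg adjustment. edgeR called 0.813% of the 2828 tested circRNAs at 3 d vs. 0 d, 0.530% at 6 d vs. 0 d, 0.566% at 9 d vs. 0 d, 0.424% at 6 d vs. 3 d and 0.354% at 9 d vs. 6 d. DESeq2 called 1 of the 2828 higher and 2 lower at 3 d vs. 0 d, and 0 in the other comparisons. A missing call by DESeq2 therefore carries little weight. With 0, 1 and 3 reads at 0 d, 6 d and 9 d, circRNA4965 passed the filter of 5 counts only through its 3 d reads. Its values in comparisons with 3 d therefore cannot serve as evidence of a difference. It had 10 reads at 3 d against 0 at 0 d, and the exact 95% lower limit of the ratio of read shares was 2.03. With 3 counts set in place of the 0 reads the ratio was 3.02. The comparison had an unadjusted p-value of 0.0296 and an adjusted p-value of 0.586 in edgeR, and an unadjusted p-value of 0.113 and no adjusted p-value in DESeq2. It was the only unadjusted p-value under 0.05 of edgeR among the 2 circRNAs and 5 comparisons, and DESeq2 gave none. Of all 2828 tested circRNAs, 175 had such a p-value in edgeR at 3 d vs. 0 d. The ratio of its read shares at 6 d vs. 3 d was 0.122, with an exact 95% interval of 0.00282 to 0.861, and intervals and bounds cover counting error only. The reads of both circRNAs summed to 2, 12, 2 and 4 at 0 d, 3 d, 6 d and 9 d. The summed ratio at 3 d vs. 0 d was 5.44 (exact 95% interval 1.21 to 50.0), and edgeR gave a log2 fold change of 2.16 (1.56 to 2.55 with 1 library left out) with an adjusted p-value of 0.688. The sum was not called in any comparison by edgeR or DESeq2, where edgeR called 0.805% of 2111 host genes at 3 d vs. 0 d, 0.474% at 6 d vs. 0 d, 0.237% at 9 d vs. 0 d, 0.474% at 6 d vs. 3 d and 0.189% at 9 d vs. 6 d. DESeq2 called 8 of the 2111 higher and 5 lower at 3 d vs. 0 d, and 2 higher and 1 lower at 6 d vs. 0 d. It called 1 higher at 6 d vs. 3 d and 0 in the other comparisons. The unadjusted p-value of the TGFBR2 sum at 3 d vs. 0 d was 0.138 in edgeR and 0.172 in DESeq2, and none was under 0.05. No difference in TGFBR2 circRNAs between days was called with these few reads.

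**Figure D5:**
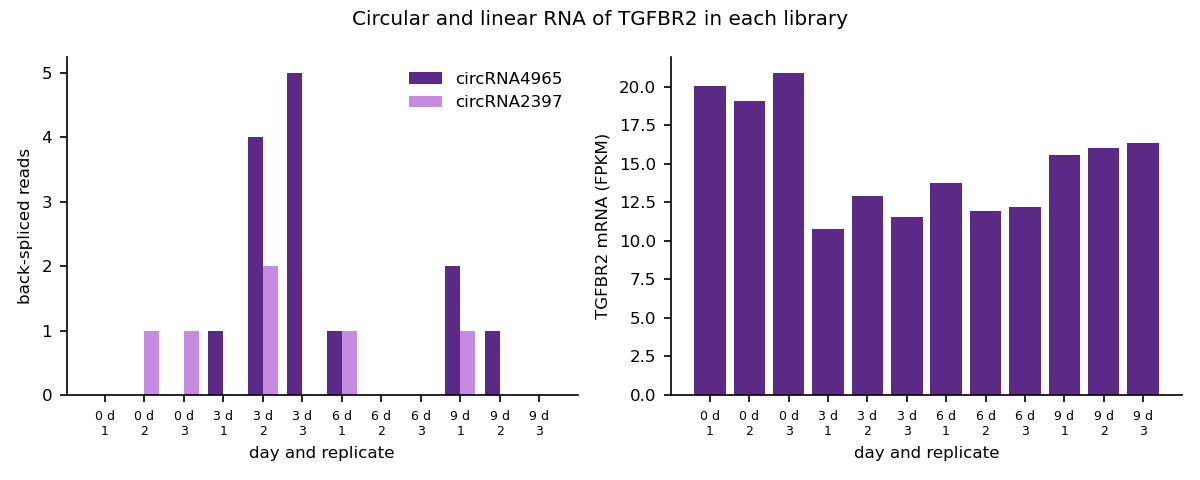
Back-spliced reads of the 2 TGFBR2 circRNAs (left) and FPKM of TGFBR2 mRNA (right) in each of the 12 libraries (horizontal axes, day and replicate). The 3 d libraries held 10 of the 14 reads of circRNA4965.

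Other genes of the set also gave back-spliced reads, all of them few. TGFB2 had 33 reads from 2 circRNAs, of which 16 came from 0 d, 5 from 3 d, 4 from 6 d and 8 from 9 d. LTBP1 had 31 reads from 15 circRNAs, LTBP2 11 from 5, TGFB1 10 from 2 and TGFB3 2 from 1. INHBA, SMAD7 and TGFBI had none. These counts are given as descriptions and were not tested.

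For each of the 9 genes, the 3 mRNAs with the most similar course were found by Pearson r of log2(FPKM + 0.1) over the 12 libraries. The libraries fall into 4 days, so r mixes likeness of the day means with that of single libraries. TGFB2 was followed most closely by HACD2 (0.989), BRI3BP (0.987) and FUT10 (0.985), and HACD2 had mean FPKM of 38.5, 59.9, 38.7 and 22.5 at 0 d, 3 d, 6 d and 9 d. Its order of days was close to that of TGFB2, highest at 3 d and lowest at 9 d. TGFB1 was nearest to TM4SF19 (0.970), LLGL1 (0.967) and PDGFRB (0.962), the last with 586, 226, 212 and 597 FPKM. TGFB3 was nearest to DOCK5 (0.975), NEDD4L (0.974) and RAB15 (0.972), which shared its high value at 0 d. INHBA was nearest to MED30 (0.963), MANBA (0.957) and NXPH3 (0.933). LTBP1 was nearest to SUSD5 (0.991), CROT (0.987) and CKAP4 (0.986), and TGFBI to CROT (0.989), P4HA2 (0.986) and PCDH18 (0.984), so CROT stood near both genes with mean FPKM of 15.8, 16.2, 41.0 and 30.5. LTBP2 was nearest to C2CD5 (0.983), FMO5 (0.965) and OCA2 (0.962), and TGFBR2 to GRIK5 (0.978), DAG1 (0.977) and ALAD (0.976). SMAD7, which had no clear course over the days, reached at most 0.893 with TOB2, before CREB3L2 (0.887) and ABCF2 (0.877). Single libraries entered these values, as TOB2 (27.2, 10.2 and 26.8 FPKM) and CREB3L2 (20.2, 5.36 and 18.5) were low in 9 d replicate 2 like SMAD7, and NXPH3 was high in 6 d replicate 2 (6.33) like INHBA.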

How the data were processed

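Groups were set by the day in the sample labels. For mRNAs the deposited values are FPKM, which the authors computed after aligning reads and assembling transcripts. For circRNAs the authors deposited a count of back-spliced reads and SRPBM, a signal scaled per library. The submitters' processing notes name Bowtie 0.12.2, HISAT2 2.0, StringTie 1.3.0 and mm8, a mouse build, whereas the methods of the study name ARS-UCD1.2. The labels describe poly(A) selection and the methods of the study rRNA depletion. The lncRNA and miRNA tables were not used, and the tables that were used had 0 further value columns for any sample.

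FPKM are no counts, so mRNAs with a mean of at least 0.1 FPKM entered a limma 3.58.1 fit (trend, all 12 libraries) as log2(FPKM + 0.1), although edgeR is the test the study names. circRNAs and host sums with at least 5 counts were tested with edgeR 4.0.16 (TMM, quasi-likelihood), with DESeq2 1.42.0 as the alternative. P-values were adjusted by Benjamini-Hochberg within each comparison. Calls need an adjusted p-value under 0.05 and an absolute log2 fold change over 1. Rescaled FPKM were divided by the median ratio to the geometric mean over mRNAs above 0 in every library. Ratios of read shares have exact 95% intervals, computed from the reads as counted. Only for a separate ratio were 0 reads set to 3 counts, where the other day had more than 3 reads. R 4.3.3, Python 3.11.15, NumPy 2.4.6, pandas 2.3.3, SciPy 1.17.1 and Matplotlib 3.10.9 were used. All 9 gene names and the chromosome of the circRNAs (121 of 121 host genes) were matched in a RefSeq gene table.

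Named genes were all 9 members, every TGFBR2 circRNA with at least 5 reads, pathway genes called at 3 d or 9 d vs. 0 d without overlap of the libraries (up to 6 per list and comparison, by absolute fold change) and the 3 mRNAs most alike each member (no LOC name, mean FPKM of at least 1). The lists were other ligands, other receptors, latency and activation, SMAD transducers, inhibitors, target genes and 5 marker lists. Members and lists were chosen with earlier results of these data known. Markers, the circRNAs of other members and 4 further pathway genes with unsteady calls were named after their values were seen. Of the target genes, 1 is counted and not reported here.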

Additional observations from a re-analysis of the deposited data

How the results depend on the processing

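Of 850 recomputed fold changes of the 9 genes, 823 kept their direction and side of the threshold, 12 lost the call, 5 gained it and 10 changed sign. The cause was not tested. With a pseudocount of 1, which shrinks low values by construction, the genes called were 1 at 3 d vs. 0 d, 1 at 6 d vs. 0 d and 1 at 6 d vs. 3 d, and all called mRNAs were 2184 (3 d vs. 0 d), 967 (6 d vs. 0 d), 888 (9 d vs. 0 d), 1688 (6 d vs. 3 d) and 368 (9 d vs. 6 d), against 3585, 1749, 1675, 2939 and 683. With a mean of at least 1 FPKM, fewer mRNAs were tested and 1114 were called at 9 d vs. 0 d. Leaving out 1 library gave 2 to 4 genes called at 6 d vs. 3 d, 3 to 4 at 3 d vs. 0 d and 2 to 3 at 9 d vs. 0 d.

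Uncalled fold changes near 0 changed sign. Values for 6 d vs. 0 d were 0.129 for TGFB2 with rescaled libraries, and with 1 library left out TGFB2 ranged from -0.0708 to 0.00246 (without 0 d replicate 1), INHBA from -0.932 to 0.0170 (without 6 d replicate 3) and SMAD7 from -0.00844 (without 6 d replicate 2; -0.00191 without 6 d replicate 3) to 0.173. SMAD7 at 9 d vs. 0 d ranged from -0.407 to 0.00728 (without 9 d replicate 2), and TGFB1 at 6 d vs. 3 d from -0.0763 (without 6 d replicate 2; -0.0447 without 3 d replicate 3) to 0.0757. TGFB3 at 9 d vs. 6 d ranged from -0.137 to 0.0601 and INHBA from -0.511 to 0.438 (both without 6 d replicate 2). The cause was not tested.

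The log2 fold change of the summed TGFBR2 circRNA reads ranged with 1 library left out from 1.563 to 2.554 at 3 d vs. 0 d, from -4.897 to -1.413 at 6 d vs. 3 d, from -2.795 to 0.684 at 6 d vs. 0 d, from -0.525 to 1.18 at 9 d vs. 0 d and from -0.704 to 3.43 at 9 d vs. 6 d. Few reads set this limit. Single TGFBR2 circRNAs gave no value with at least 20 counts, since neither reached that number.

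A block for the replicate number gave 3, 2, 2, 4 and 1 genes called at 3 d, 6 d and 9 d vs. 0 d, 6 d vs. 3 d and 9 d vs. 6 d, 28, 13, 12, 27 and 10 pathway genes, 3591, 1746, 1683, 2933 and 657 mRNAs, and -0.0149 for the summed TGFBR2 circRNA reads at 6 d vs. 0 d (0.171 without it). After removal of the day means, libraries with the same number on different days correlated across mRNAs by -0.0981 to 0.112 (median 0.022), and those with different numbers by -0.190 to 0.183 (median -0.0108). Of 12 libraries 6 were nearest to their own number. The pairs of replicate 3 all lay above 0 (0.0292 to 0.105), so whether the numbers mark a pairing was not settled. Few reads limit the circRNAs, and FPKM carry no counting interval.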
